A study of Mus musculus with 4 samples.

Results

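The 10 genes described here encode enzymes that remove superoxide and hydrogen peroxide, together with the mitochondrial thioredoxin that serves some of them. They are Sod1, Sod2, Cat, Gpx1, Gpx4, Prdx1, Prdx2, Prdx3, Prdx5 and Txn2. The rule lists them by symbol and holds no measured value, but earlier results of these data were known when they were chosen. All 10 were among the 23420 genes listed in each of the 4 deposited tables, and all 10 had enough reads to be tested. The cells came from Atoh1-GFP mice on a CD1 background at postnatal day 1, whose cochleae were kept in organ culture overnight at 5% oxygen in medium with penicillin. In this line an Atoh1-driven GFP marks sensory hair cells, and cells with weak GFP were gated out of the sort. GFP-positive hair cells (HC) and GFP-negative non-hair cells (NHC) were sorted from organs treated for 3 h with 0.5 mM gentamicin, an aminoglycoside antibiotic that kills hair cells, and from untreated control organs. This gave 4 groups of 3 replicates (control HC, gentamicin HC, control NHC and gentamicin NHC). Non-hair cells are the GFP-negative cells of the dissected organ, without the cells of weak GFP. They are a mixture of supporting, mesenchymal, glial, vascular and immune cells, and in such bulk samples fewer cells of a type and less RNA per cell cannot be told apart.

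Superoxide leaks from the mitochondrial respiratory chain and is also made by NADPH oxidases. Superoxide dismutases turn it into hydrogen peroxide, Sod1 with copper and zinc in the cytosol and Sod2 with manganese in the mitochondrial matrix. Catalase (Cat) in peroxisomes splits hydrogen peroxide without any reducing partner. Glutathione peroxidases spend glutathione instead. Gpx1 and Gpx4 are selenoproteins, and Gpx4 is the member that reduces lipid peroxides inside membranes. Peroxiredoxins react with peroxide through a cysteine and are reset by thioredoxin, with Prdx1 and Prdx2 mainly in the cytosol, Prdx3 in mitochondria together with its reductant Txn2, and Prdx5 in several compartments. These enzymes are much studied in the inner ear because reactive oxygen species are among the proposed mediators of aminoglycoside damage.

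The level of a gene is given below as the deposited score, called the normalized read number, which is a read number scaled per replicate with 1 added and not divided by gene length. Reads on genes numbered 22399177 to 28150090 per replicate, and no member had fewer than 1012 reads in any replicate. Log2 levels were fitted with limma over 16077 genes, with the 4 groups in one model. A gene was called changed by the criteria of the study, which ask for a fold change beyond 1.2 with an unadjusted p under 0.01, and limma's adjusted p (Benjamini-Hochberg over all genes tested) is given beside it. The sorts matched their labels for hair cell genes: the summed level of 10 hair cell markers was 12212 to 12698 in control HC and 262 to 286 in control NHC. The 10 supporting cell markers did not separate the populations, with sums of 1964 to 2409 in control HC and 1882 to 3367 in control NHC.

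In control hair cells the most abundant of the 10 transcripts per length was Prdx2, and the least abundant was Sod2. Levels between genes were compared as the normalized read number minus 1 per kilobase of annotated exon (GENCODE M21), and all values in this paragraph are on that scale. Prdx2 stood at 111 ± 5.05 (SD, n = 3) and Gpx4 at 91.6 ± 2.53 in control HC, and the replicates of the pair did not overlap. Sod1 (50.04 ± 0.385), Prdx1 (45.8 ± 2.25), Prdx3 (40.2 ± 1.196) and Gpx1 (33.7 ± 1.57) followed, each clear of its neighbour in this order. Prdx5, at 32.4 ± 0.656, overlapped with Gpx1. Cat (23.9 ± 0.922), Txn2 (13.4 ± 1.11) and Sod2 (9.23 ± 0.716) closed the order without overlap. The order was another in control NHC. There Gpx4 (128 ± 12.1) and Prdx2 (116 ± 13.2) overlapped at the top, Prdx1 (91.9 ± 15.6) overlapped with Prdx2, and Prdx3, 5th in control HC, was 8th at 35.6 ± 2.19, overlapping with Cat. Gpx1, 6th in control HC, was 4th there at 60.8 ± 7.51, overlapping with Sod1. Exon lengths come from the annotation and were not checked against the transcripts that these cells use. With the longest annotated transcript as the length, control HC held 209 for Prdx2, 159 for Gpx4, 27.5 for Txn2 and 15.8 for Sod2, still the lowest. In that order Prdx1 (60.8) lay above Sod1, Gpx1 (45.4) above Prdx3 and Txn2 above Cat, each without overlap, so these ranks depend on the length used. For Sod1 (3970 bases), Cat (2613) and Prdx3 (1478) both lengths were equal, so this change could not test their own values. The spread of replicates does not measure an error in length.

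**Figure D1:**
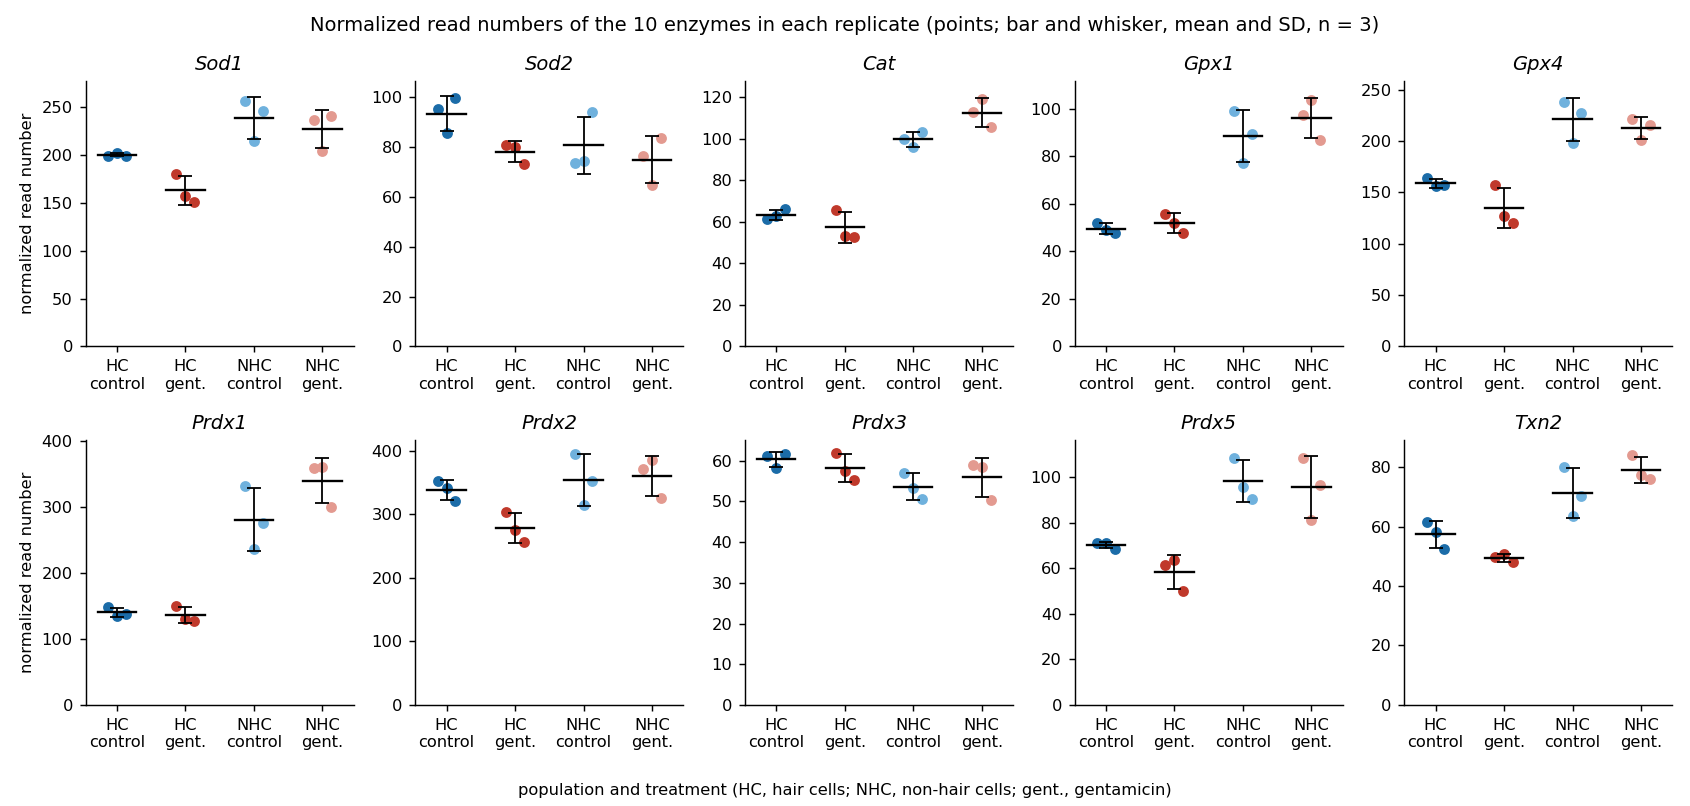
Normalized read number (vertical axis, from 0, not divided by gene length) of each of the 10 enzymes in the 4 groups, HC and NHC with and without gentamicin (gent.); points are the 3 replicates, the bar is their mean and the whisker their SD. Sod1, Cat, Gpx1, Gpx4, Prdx1, Prdx5 and Txn2 were lower in all control HC than in all control NHC replicates. Prdx3 was higher in all, and Sod2 and Prdx2 overlapped between these groups. Over all genes tested, 44.6% were lower and 34.5% higher without overlap.

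The members that differed most between the control populations were Prdx1, Gpx1 and Cat. Each was lower in control hair cells than in control non-hair cells, by 1.98-fold, 1.78-fold and 1.57-fold. Prdx2, cytosolic like Prdx1, differed least. Of the 3 members that are only or mainly mitochondrial, Txn2 was lower in HC, while Sod2 and Prdx3 had means above those of NHC without passing the criteria. By these criteria 6 of the 10 members were lower in control HC and none was higher, in a comparison where 65.8% of all genes tested were called (37.7% lower and 28.1% higher in HC). At a limma adjusted p under 0.05 the count was 7 of 10, all lower and with Sod1 added, where 74.1% of all genes passed (42.2% lower and 31.9% higher). Read against that background, the number of members called was not high. The median log2 difference was −0.39 over the 10 members and −0.12 over all genes tested.

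Prdx1 had 148, 135 and 138 normalized reads in control HC and 331, 236 and 275 in control NHC. Every NHC replicate lay well above every HC replicate (log2 −0.99 ± 0.120 SE, limma adjusted p = 1.49e-05). Gpx1 read 52.1, 49.1 and 47.7 in control HC against 99.0, 77.4 and 89.6 in control NHC, again without overlap (log2 −0.83 ± 0.1002, adjusted p = 1.36e-05). Cat was the steadiest of these genes, at 61.4, 62.8 and 66.1 in control HC and 100.2, 96.1 and 103 in control NHC (log2 −0.65 ± 0.0872, adjusted p = 3.11e-05). Prdx5 (log2 −0.48 ± 0.118, adjusted p = 0.00308) and Gpx4 (log2 −0.47 ± 0.101, adjusted p = 0.00120) differed by smaller amounts with no overlap of replicates. Txn2, the thioredoxin of mitochondria, read 61.6, 58.1 and 52.4 in control HC and 80.0, 63.4 and 70.3 in control NHC, a narrow gap (log2 −0.31 ± 0.0906, adjusted p = 0.00880). Its call was lost when control NHC replicate 1 was left out (log2 −0.22, adjusted p = 0.0388), when any of 3 other replicates was left out, and when reads were scaled by the median of ratios (log2 −0.19, adjusted p = 0.0731).

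The remaining 4 members did not meet the criteria between the control populations. Sod1, with 199, 201 and 199 in control HC and 256, 214 and 245 in control NHC, had no overlap. It missed both thresholds, with a 1.19-fold difference and an unadjusted p of 0.0202 in limma (log2 −0.25 ± 0.0931, adjusted p = 0.0287). The SD of its level was 1.53 in control HC and 22.0 in control NHC. Prdx2 overlapped fully, with 352, 341 and 321 in HC and 394, 314 and 352 in NHC (log2 −0.06, 95% interval −0.28 to 0.16), and its sign turned when reads were scaled by the median of ratios (log2 0.06). Prdx2 is the peroxiredoxin most abundant in red blood cells. The summed level of 8 red blood cell markers was 64.0 in control NHC replicate 1, where Prdx2 was also highest, and at most 14.8 in all other replicates. Among the control NHC replicates, Sod1, Gpx1, Gpx4, Prdx1, Prdx3, Prdx5 and Txn2 were highest in replicate 1 as well, and Sod2 and Cat were not. Gentamicin NHC replicate 2 held 385 for Prdx2 with a marker sum of 4.14. The part of red blood cells in the Prdx2 value was not tested. Sod2, at 94.99, 85.5 and 99.5 in HC and 73.7, 74.3 and 93.8 in NHC, overlapped (log2 0.22, 95% interval −0.03 to 0.47). Prdx3 was the only member with every control HC replicate above every control NHC replicate, at 61.1, 58.3 and 61.6 against 57.0, 53.4 and 50.6 (log2 0.17, 95% interval −0.00301 to 0.35). Over all genes tested, 79.2% had no overlap between these groups.

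**Figure D2:**
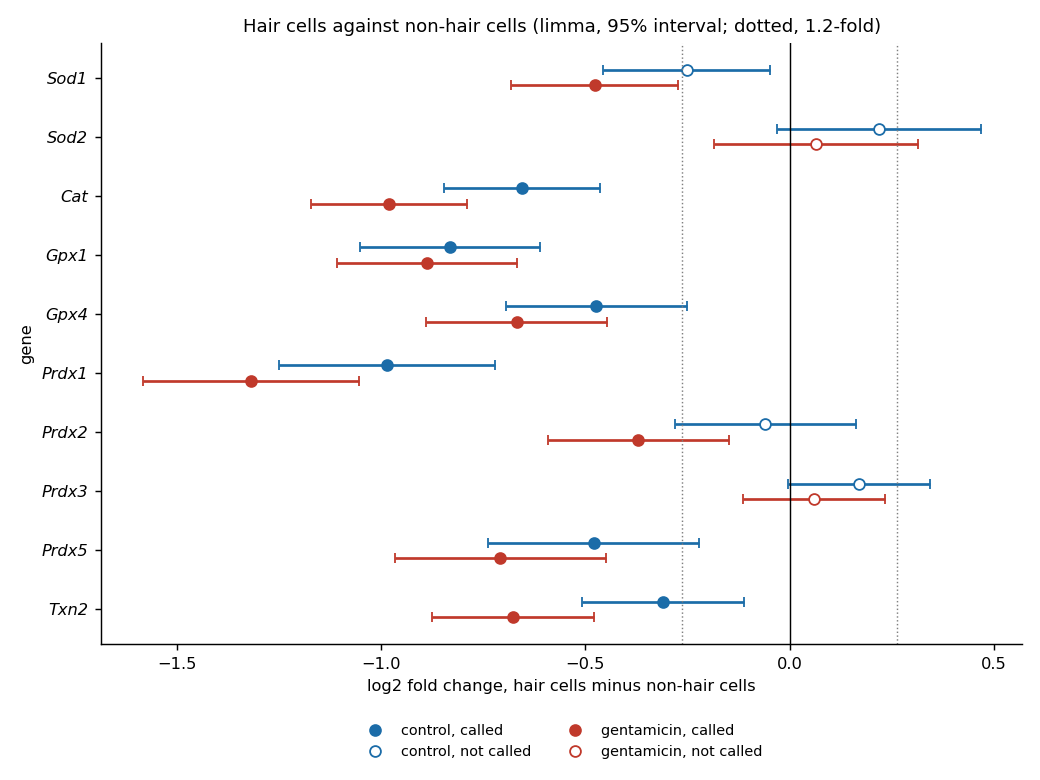
Log2 fold change of each member between hair cells and non-hair cells (horizontal axis; negative values are lower in hair cells) in control and gentamicin-treated organs, with the 95% interval from limma; filled points met the criteria, open points did not, and dotted lines mark a 1.2-fold change. Prdx1 lay farthest to the left in both conditions, at −0.99 and −1.32, and Sod2 and Prdx3 lay to the right of 0 in both.

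In treated organs 8 of 10 were called lower in HC and none higher, in a comparison with 70.4% of all genes tested called (39.4% lower and 30.9% higher). At a limma adjusted p under 0.05 the count was also 8 of 10, where 78.1% of all genes passed (43.5% lower and 34.6% higher). The median log2 difference of the members was −0.67, against −0.12 over all genes. Prdx1 was 2.50-fold lower in HC (log2 −1.32 ± 0.120, adjusted p = 9.91e-07) and Cat 1.97-fold lower (log2 −0.98 ± 0.0872, adjusted p = 7.95e-07). Gpx1 (log2 −0.89), Prdx5 (−0.71), Txn2 (−0.68), Gpx4 (−0.67), Sod1 (−0.48) and Prdx2 (−0.37) completed the list. Prdx2 was the weakest of these calls (adjusted p = 0.00544), and it was lost when reads were scaled by the median of ratios (log2 −0.25, adjusted p = 0.0400) or when any of 4 of the 6 treated replicates was left out. Sod2 (log2 0.07, 95% interval −0.18 to 0.32) and Prdx3 (log2 0.06, 95% interval −0.11 to 0.23) overlapped between the treated populations. The difference between the treated and the control contrast is the interaction given further on.

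Windows of 250 bases before to 50 after the RefSeq start sites (build GRCm38.p6) were found for all 10 members, 13 windows in all, and were searched on both strands for short motifs. The windows of Prdx1, the member that differed most between the populations, and of Sod1, the only member called after gentamicin in hair cells, are printed because they alone among the 10 members held TGACNNNGC, a core form of the antioxidant response element. Capitals mark that core in both windows and, in Prdx1, also each TGAGTCA, the AP-1 consensus. The Prdx1 window is chr4:116685349-116685648 and the Sod1 window chr16:90220512-90220811, both on the plus strand.
Prdx1: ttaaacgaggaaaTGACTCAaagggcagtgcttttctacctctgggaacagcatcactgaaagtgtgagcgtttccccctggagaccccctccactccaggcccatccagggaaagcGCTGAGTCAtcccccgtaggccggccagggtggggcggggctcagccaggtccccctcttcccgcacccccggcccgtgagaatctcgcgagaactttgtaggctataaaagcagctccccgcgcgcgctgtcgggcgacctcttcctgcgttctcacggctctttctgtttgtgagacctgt
Sod1: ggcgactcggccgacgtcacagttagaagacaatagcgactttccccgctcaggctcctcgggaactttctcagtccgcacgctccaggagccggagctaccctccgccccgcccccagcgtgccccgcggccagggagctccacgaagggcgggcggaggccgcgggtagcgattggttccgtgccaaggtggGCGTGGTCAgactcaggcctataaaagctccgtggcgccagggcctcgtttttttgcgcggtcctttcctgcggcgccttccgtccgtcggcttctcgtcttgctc
In the Prdx1 window the core begins 133 bases before the start site and overlaps with an AP-1 match at −131, and a second AP-1 match lies at −237. In the Sod1 window the core begins at −56. Of all 32851 windows, 12.4% held TGACNNNGC and 5.20% held TGAGTCA. A second form of the core, TGAGNNNGC, was in the windows of Prdx1 and Txn2 and in 17.6% of all windows. GGGCGG, the GC box, was in 12 of the 13 member windows, from all 10 members, and in 35.7% of all windows. CCAAT was in 7 of the 13, from 5 members, and in 37.4% of all windows. The GC content of the member windows ran from 47% (Gpx1, the only one below the median of all windows, 52.7%) to 68.7% (Prdx2). Nfe2l2, the factor that acts through the antioxidant response element, was itself lower in control HC than in control NHC (log2 −2.55) and was not called after gentamicin in HC (log2 −0.04) or NHC (−0.13). The matches describe the reference sequence only.

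After 3 h of gentamicin, none of the 10 transcripts was called higher in hair cells. Sod1 fell by 18.8%, and it was the only member called, in a comparison where 27.5% of all genes tested were called (14.8% lower and 12.7% higher). At an adjusted p under 0.05 the count was again 1, where 33.2% of all genes passed, and 6 members had an unadjusted p under 0.05 in limma, all of them lower. The share of all genes at this unadjusted p was not counted in this or the other comparisons. Estimates leaned to lower levels for the members and for all genes: 9 of 10 members were below 0, and 9626 of the 16077 genes tested. Prdx1 and Prdx3 turned to 0.05 and 0.04 when replicate totals set the scaling. The median log2 fold change was −0.23 over the members and −0.09 over all genes tested. The changes were small, since the largest was 1.23-fold, and the 95% intervals of all 10 lay between −0.53 and 0.28 on the log2 scale. In 5 members (Sod1, Sod2, Prdx2, Prdx5 and Txn2) every treated replicate lay below every control replicate, and in none above. Over all genes tested, 33.1% lay below and 54.8% did not overlap in either direction.

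Among the superoxide dismutases, Sod1 read 199, 201 and 199 in control HC and 180.2, 157 and 151 after gentamicin. The treated replicates were all lower and were spread more widely than the controls (log2 −0.30 ± 0.0931, limma adjusted p = 0.0291). The call was lost when any hair cell replicate other than gentamicin replicate 1 was left out (log2 −0.30 to −0.25, adjusted p 0.0668 to 0.0941), when the reads were scaled by totals (log2 −0.20, adjusted p = 0.124) and when the variance had no trend (adjusted p = 0.0420, unadjusted p = 0.0126 in limma). Sod2, its mitochondrial counterpart, read 94.99, 85.5 and 99.5 in control HC and 80.9, 79.9 and 73.3 after gentamicin. These groups did not overlap, but the difference did not pass (log2 −0.26 ± 0.114, adjusted p = 0.104). The dismutases together, as the sum of both levels minus 1, went from 291 ± 5.73 to 239 ± 18.8 (SD, n = 3).

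Of the peroxide removing enzymes without thioredoxin, Cat read 61.4, 62.8 and 66.1 in control HC and 65.9, 53.4 and 52.7 after gentamicin, so that treated replicate 1 lay among the controls (log2 −0.15, adjusted p = 0.200). Gpx1 was the only member with a positive estimate, with 52.1, 49.1 and 47.7 before and 56.0, 52.1 and 47.8 after, an overlap (log2 0.06, 95% interval −0.16 to 0.28). Gpx4, the lipid hydroperoxide reductase, read 164, 156 and 157 in control HC and 157, 127 and 119.9 after gentamicin. Treated replicate 1 again lay with the controls, and the difference did not pass (log2 −0.25 ± 0.101, adjusted p = 0.0799). Without that replicate Gpx4 met the criteria (log2 −0.36, adjusted p = 0.0125).

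Among the peroxiredoxins, Prdx2 read 352, 341 and 321 in control HC and 304, 276 and 257 after gentamicin. All treated replicates were lower, but the difference did not pass (log2 −0.28 ± 0.101, unadjusted p = 0.0176 and adjusted p = 0.0521 in limma). With the replicate block (adjusted p = 0.0284) or the compared groups alone (adjusted p = 0.0241) Prdx2 was called. Prdx5, the peroxiredoxin found in several compartments, read 71.2, 71.0 and 68.6 before and 61.6, 63.8 and 49.9 after (log2 −0.27 ± 0.118, adjusted p = 0.0949). Prdx1 (148, 135 and 138 before, 150.3, 129.8 and 128 after) and Prdx3 (61.1, 58.3 and 61.6 before, 61.9, 57.4 and 55.4 after) overlapped, with log2 fold changes of −0.05 each and adjusted p of 0.788 and 0.647. Txn2, which reduces Prdx3, read 61.6, 58.1 and 52.4 in control HC and 49.6, 50.6 and 48.0 after gentamicin, without overlap (log2 −0.21 ± 0.0906, adjusted p = 0.0937).

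The summed level of all 10 members minus 1 was 1202 to 1255 in control HC and 972 to 1157 in treated HC, and their share of all reads on genes was 0.116 to 0.122% and 0.101 to 0.121%. Marker sums also moved in the same samples, in a comparison where 14.8% of all genes tested were called lower and 12.7% higher. Supporting cell markers (10 of 10 in the files) summed to 1964 to 2409 in control HC and 997 to 2124 after gentamicin, with 3 of 10 called lower. Mesenchyme markers summed to 545 to 810 and then 372 to 456 (4 of 10 called lower), and Schwann cell markers to 269 to 327 and then 131 to 232 (4 of 8 called lower). Macrophage markers summed to 5.06 to 6.59 and then 17.5 to 22.0, with 1 of 10 called higher. That gene was Cd68, which went from 2.43 to 14.1, and the median log2 fold change of the list was 0.06. Endothelial markers summed to 16.2 to 31.3 and then 9.15 to 15.7 (1 of 8 called lower). Hair cell markers summed to 12212 to 12698 and then 10374 to 11531, also without overlap, with 1 of 10 called lower. The part of these cells in the levels of the 10 members was not tested.

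**Figure D3:**
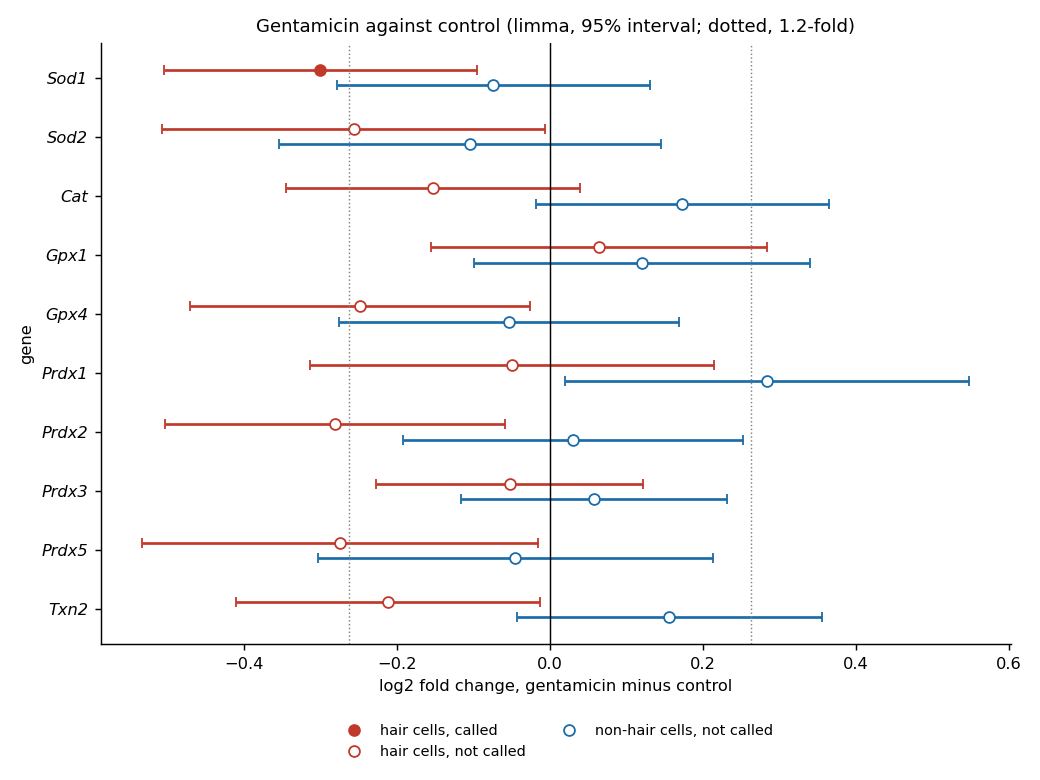
Log2 fold change of each member, gentamicin minus control (horizontal axis), in hair cells and in non-hair cells, with the 95% interval from limma; the filled point met the criteria, open points did not, and dotted lines mark a 1.2-fold change. Sod1 in hair cells, at −0.30, is the only filled point, and in every row the hair cell estimate lies to the left of the non-hair cell estimate. Of all 16077 genes tested, 9202 also had the lower estimate in hair cells.

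In non-hair cells none of the 10 members changed after gentamicin by the criteria, in a comparison where 5.44% of all genes tested were called (3.18% higher and 2.26% lower). At an adjusted p under 0.05 the limma count was also 0 of 10, with 0.342% of all genes called (0.236% higher and 0.106% lower), and 1 member had an unadjusted p under 0.05. Estimates lay on both sides of 0 (6 above and 4 below), with a median of 0.04 against −0.01 over all genes, and the 95% intervals lay between −0.35 and 0.55. Prdx1, the member highest in NHC against HC, had the largest estimate. It read 331, 236 and 275 in control NHC and 359, 359.8 and 300.1 after gentamicin, with control replicate 1 inside the treated range (log2 0.28 ± 0.120, adjusted p = 0.263). Without that replicate Prdx1 met the criteria at a larger estimate (log2 0.41, adjusted p = 0.0891), while calls over all genes went from 875 to 1366. Control NHC replicate 1 also had the highest red blood cell marker sum, and the part of these cells in the Prdx1 value was not tested. Cat was the only member without overlap, at 100.2, 96.1 and 103 before and 113, 119 and 106 after (log2 0.17, 95% interval −0.02 to 0.36, adjusted p = 0.338), where 17.8% of all genes did not overlap. Txn2 (log2 0.16) and Gpx1 (0.12) were next, and Sod2 had the lowest estimate (−0.10, 95% interval −0.35 to 0.15). Sod1, Sod2, Gpx4, Prdx2 and Prdx5, with estimates between −0.10 and 0.03, changed sign when single replicates were left out.

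The interaction asks whether gentamicin acted differently on a gene in hair cells and in non-hair cells, and it uses the samples of both comparisons above. None of the 10 members passed it at a limma adjusted p under 0.05, where 13.4% of all genes tested did (6.85% positive and 6.57% negative), and 2 had an unadjusted p under 0.05. All 10 estimates, hair cells minus non-hair cells, were negative, as were 9202 of the 16077 genes tested. Their median was −0.23, against −0.07 over all genes. That of Gpx1 (−0.06) turned to 0.02 when reads were scaled by totals. Txn2 had the largest difference (log2 −0.37 ± 0.128, adjusted p = 0.0798), from −0.21 in HC and 0.16 in NHC. Prdx1 (−0.33 ± 0.170, adjusted p = 0.213), Cat (−0.33 ± 0.123, adjusted p = 0.102) and Prdx2 (−0.31 ± 0.143, adjusted p = 0.168) followed. The outcome depended on 1 library for both Cat and Txn2. Cat passed without gentamicin HC replicate 1 (log2 −0.43, adjusted p = 0.0219), and Txn2 passed without control NHC replicate 1 (log2 −0.45, adjusted p = 0.0324).

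Across the 12 replicates, the members fell into levels that moved together and levels that did not. Pearson's r of log2 levels was 0.99 between Gpx1 and Prdx1, 0.98 between Cat and Prdx1 and 0.96 between Sod1 and Gpx4. For Sod2 the r with other members ran from −0.47 to 0.09, and for Prdx3 from −0.44 to 0.08. These values describe 12 points that share 4 groups and the sorts behind them, so they mostly restate the difference between the populations. Over all genes tested, the gene most like each member by the same measure was Gpx4 for Sod1 (0.96), Fam102b for Sod2 (0.92), 2610001J05Rik for Cat (0.99), Zfp637 for Gpx1 (0.99), Pigh for Gpx4 (0.98), Dctpp1 for Prdx1 (0.99), Psmb1 for Prdx2 (0.98), Mrpl28 for Prdx3 (0.94), Cope for Prdx5 (0.99) and Tceb2 for Txn2 (0.98).

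Of 9 tested relatives of the 10 enzymes, 7 were lower and 2 higher in control HC, where 65.8% of all genes were called. Their median log2 difference was −2.32, against −0.39 for the members, and the lists were not tested against each other. The extracellular dismutase Sod3 read 3.24 ± 0.294 in control HC and 42.0 ± 3.42 in control NHC (SD, n = 3; log2 −3.70), and the secreted peroxidase Gpx3 read 2.54 ± 0.443 and 39.9 ± 5.78 (log2 −3.98). Gpx7 (log2 −3.12), Gpx8 (−2.35) and Prdx4 (−1.80), which work in the endoplasmic reticulum, and sulfiredoxin Srxn1 (−2.32), which repairs overoxidised peroxiredoxins, were also lower, as was Prdx6 (−0.56). The 2 that were higher in HC were Gpx2 (log2 2.05) and Ccs (log2 1.27), the chaperone that loads copper into Sod1. Ccs read 63.2 ± 3.19 in control HC and 26.3 ± 2.32 in control NHC, while Sod1 itself was not higher in HC. After gentamicin 0 of the 9 relatives were called in HC, where 27.5% of all genes tested were called. At a limma adjusted p under 0.05 there were 2, both lower, where 33.2% of all genes passed (18.4% lower and 14.8% higher). These were Prdx4 (log2 −0.52, adjusted p = 0.0361) and Srxn1 (log2 −0.40, adjusted p = 0.0425). Estimates in HC were negative for 8 of the 9 relatives, with a median of −0.35, against −0.23 for the members and −0.09 over all genes. In NHC, where 5.44% of all genes tested were called, 1 of the 9 was called, Ccs (log2 0.42, adjusted p = 0.0650), named here after its values were seen. Mesenchyme markers summed to 6184 to 7876 in control NHC and 545 to 810 in control HC, and endothelial markers to 355 to 382 and 16.2 to 31.3. Their part in the levels of the relatives was not tested.

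Of 65 tested genes in the 5 lists around the members, 10 were called in hair cells after gentamicin, or 15.4%, against 27.5% of all genes tested. Of the 10 genes of selenoprotein synthesis, which builds the selenocysteine into Gpx1 and Gpx4, 3 were called, a share near that background. These 3 rose and 0 fell, where 12.7% of all genes tested were called higher, and the list was not tested as a set. The median log2 fold change of the 10 genes was 0.15. Sepsecs, which makes selenocysteine on its tRNA, read 8.64, 8.48 and 8.19 in control HC and 14.6, 16.2 and 15.8 after gentamicin, far apart in every replicate (log2 0.88 ± 0.0971, limma adjusted p = 1.32e-04). Secisbp2, which binds the selenocysteine signal of the mRNA, rose from 33.5 ± 1.87 to 48.1 ± 3.75 (SD, n = 3; log2 0.52, adjusted p = 0.00103). Sephs2, which supplies activated selenium, rose from 53.0 ± 2.44 to 66.3 ± 8.52 (log2 0.32, adjusted p = 0.0279), a call that 5 of 6 runs without a single hair cell replicate lost. In the same replicates the levels of Gpx1 and Gpx4 were those given above, neither of them called. In NHC Sepsecs read 8.69 ± 0.310 and then 9.05 ± 0.270, and its response differed between the populations (interaction log2 0.82, adjusted p = 0.00516). Of this list of 10 only Sephs1 was called in NHC (log2 0.30, adjusted p = 0.135), where 5.44% of all genes tested were called.

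**Figure D4:**
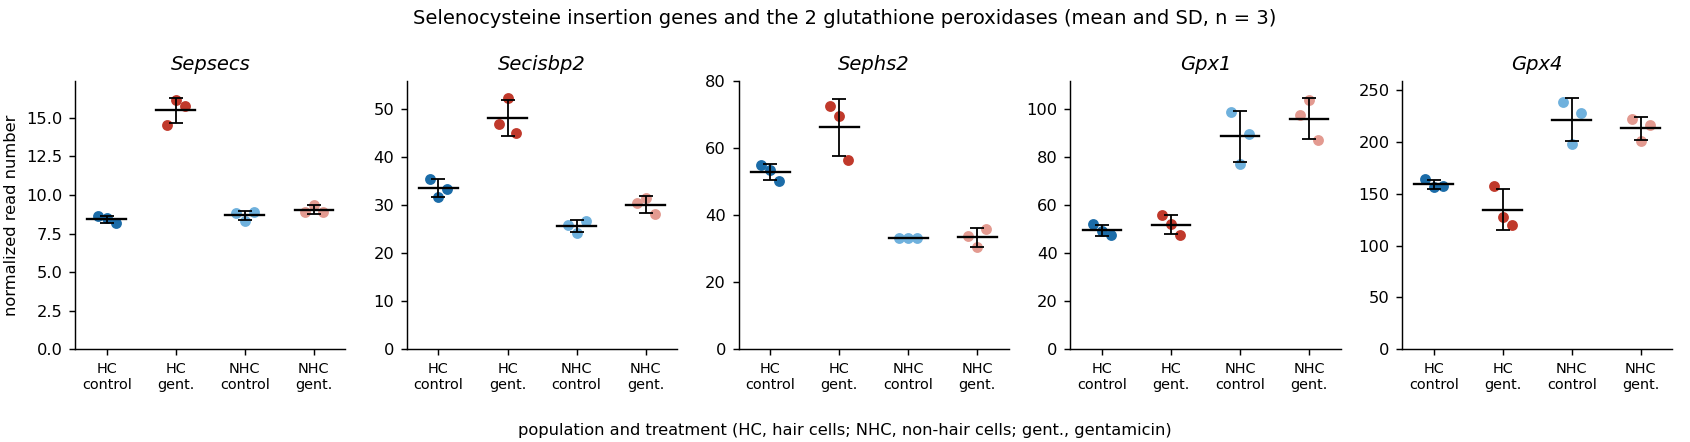
Normalized read number (vertical axis, from 0) of 3 genes of selenocysteine insertion and of the selenoproteins Gpx1 and Gpx4 in the 4 groups. Points are the 3 replicates, the bar is their mean and the whisker their SD. The 3 insertion genes are shown because they were called in HC after gentamicin, out of 10 genes listed for selenoprotein synthesis. All gentamicin HC replicates of Sepsecs (14.6 to 16.2) lie above all other replicates of that gene, while the Gpx1 replicates of control and gentamicin HC overlap.

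Of the 18 genes of the thioredoxin and glutaredoxin system, 2 rose and 3 fell in hair cells, a share again near the 27.5% of all genes, with a median log2 fold change of 0.01. The methionine sulfoxide reductase Msrb2 rose (log2 0.68, adjusted p = 0.0104), as did the thioredoxin reductase Txnrd3 (log2 0.30, adjusted p = 0.0240). Sesn2, a stress protein linked to peroxiredoxin repair, fell (log2 −0.70, adjusted p = 0.00764), and so did the cytosolic glutaredoxin Glrx (log2 −0.42, adjusted p = 0.00538) and Msrb1 (log2 −0.37, adjusted p = 0.0194). Of 14 genes of glutathione and NADPH supply only Idh2, which makes NADPH in mitochondria, was called, and it fell (log2 −0.42, adjusted p = 0.0291). Of 14 tested sources of superoxide or peroxide only Dao, D-amino acid oxidase, was called, higher (log2 0.38, adjusted p = 0.0209), from 2.21 ± 0.0811 to 2.90 ± 0.431, and it is named after its values were seen. Of these calls, those on Txnrd3, Msrb1, Idh2, Sephs2 and Dao were each lost when single hair cell replicates were left out.

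In non-hair cells 8 of the 65 tested genes in the 5 lists were called by the criteria of the study, or 12.3%, against 5.44% of all genes tested. Of the 18 genes of the thioredoxin and glutaredoxin system, 4 were called. Txnip, which binds and inhibits thioredoxin, read 478, 589 and 500.5 in control NHC and 221, 262 and 342 after gentamicin, all lower (log2 −0.94 ± 0.183, limma adjusted p = 0.0623). The other calls were Msrb2 (log2 0.55, adjusted p = 0.149), Msra (0.51, adjusted p = 0.129) and Txnrd3 (0.32, adjusted p = 0.120). Of the 14 genes of glutathione and NADPH supply, Pgd of the pentose phosphate pathway was called higher (log2 0.35, adjusted p = 0.0806) and Mthfd2 lower (log2 −0.66, adjusted p = 0.117). None of these NHC calls held at an adjusted p under 0.05. Those on Msrb2, Msra, Txnrd3 and Mthfd2 were also lost when certain single NHC replicates were left out, as was that on Sephs1. No source of superoxide or peroxide was called in NHC, and none of them had an adjusted p under 0.05.

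**Figure D5:**
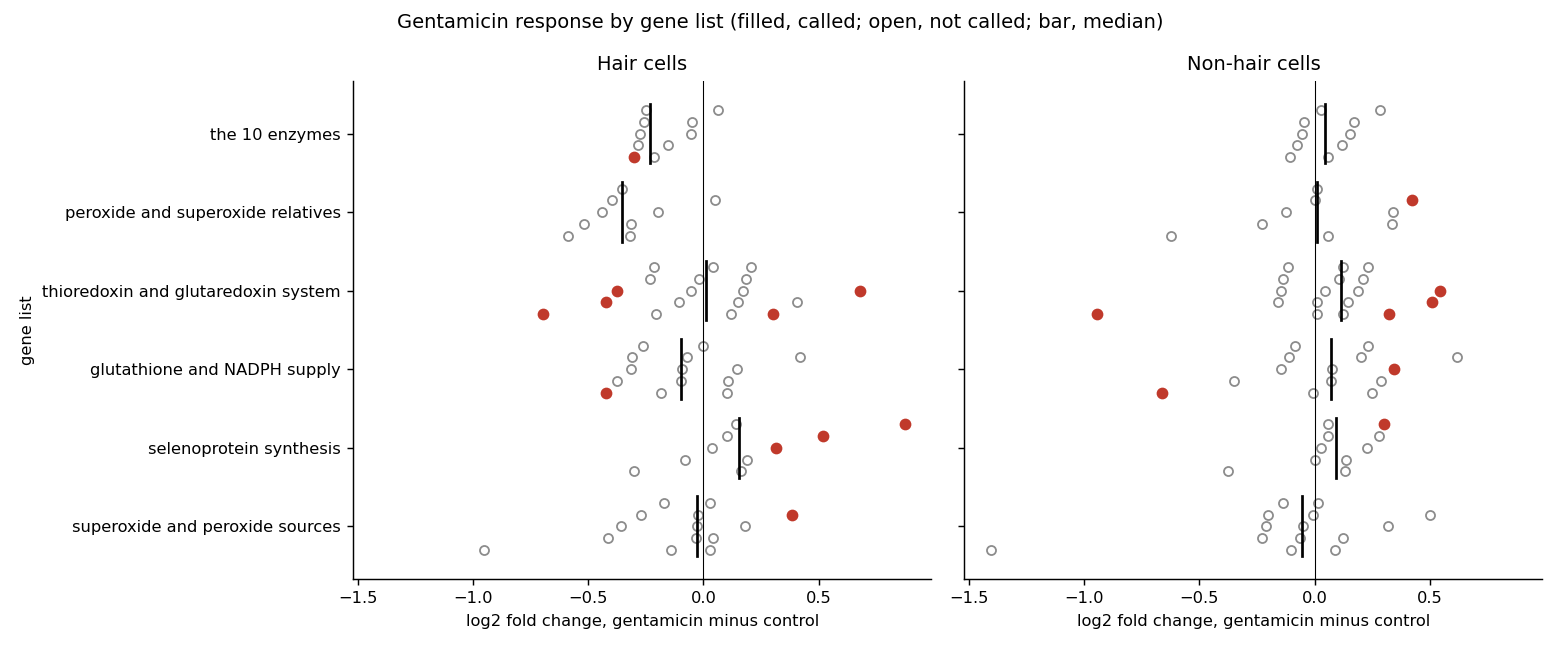
Log2 fold change, gentamicin minus control (horizontal axis), of every tested gene of 6 lists in hair cells and non-hair cells; filled points met the criteria of the study, open points did not, and the vertical bar is the list median. For the 10 enzymes the median is −0.23 in hair cells and 0.04 in non-hair cells, and for selenoprotein synthesis the hair cell median is 0.15 with 3 filled points.

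Gene positions (mm10, GENCODE M21) matter for how the reads of some members could be counted. Prdx2 (chromosome 8, 84969587 to 84974834, plus strand) and Prdx5 (chromosome 19, 6906697 to 6910106, minus strand) overlap with genes on the opposite strand, over 350 exon nucleotides shared with Rnaseh2a and Junb and over 409 shared with Trmt112. No use of strand in the counting is given in the sources used here, and without it reads from these stretches cannot be told apart. Sod1 also overlaps with Scaf4 on the opposite strand, with 0 exon nucleotides shared, and Scaf4 was lower after gentamicin in HC too (log2 −0.35, adjusted p = 0.00132). Junb read 187 ± 38.8 in control HC, 1224 ± 184 in control NHC and 731 ± 214 in gentamicin NHC, and Trmt112 read 56.1 ± 3.35 and 57.8 ± 8.13 in the control groups. Gpx4 (chromosome 10, 80047166 to 80056439) shares 34.7% of its 50-base exon stretches with other annotated genes, among them its pseudogene Gpx4-ps2, Sod2 (chromosome 17, 13006846 to 13040063) 21.0%, and Prdx1 (chromosome 4, 116685544 to 116700822) 8.81%. For Sod1 (chromosome 16, 90220754 to 90226329) the share was 3.42% and for Txn2 (chromosome 15, 77915047 to 77929006) 0.908%. Cat (chromosome 2, 103453849 to 103485160), Gpx1 (chromosome 9, 108338903 to 108340343) and Prdx3 (chromosome 19, 60864051 to 60874556) shared none. How reads from shared stretches were assigned is not given in the sources used here, so the levels of Gpx4, Sod2, Prdx2 and Prdx5 are the least certain of the 10.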

How the data were processed

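Poly(A) RNA of sorted cells was sequenced by the authors as 50-base single-end reads from TruSeq libraries, trimmed, and aligned to mm10 with TopHat2 in Partek Flow. The deposited values are a score per gene and replicate, made by the authors as reads scaled by a factor that is not given in the sources used here, with 1 added. The study's methods name RPKM, but no division by gene length was found in the values. Reads were recovered from the smallest step of each replicate: 76.8 to 78.1% of values under 20 reads came out whole within 0.02, too few for a count test. Depth was 22399177 to 28150090 reads on genes per replicate.

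Genes with at least 100 recovered reads over all replicates (16077 of 23420) were fitted on log2(score), which holds the offset of 1 and understates changes of low genes, with limma 3.58.1 in R 4.3.3 (empirical Bayes with a trend, 4 groups in one model). Gentamicin was compared with control within each population, HC with NHC within each treatment, and the gentamicin responses by an interaction called at an adjusted p under 0.05. Other calls used an unadjusted p under 0.01 and a fold above 1.2. Levels, figures and motif searches were made in Python 3.11.15. The fit was tested on simulated data. Replicates are separate samples according to the study, and no pair was alike within sampling noise. Same-numbered columns correlated in their deviations by 0.216, 0.316 and 0.200 between control HC and control NHC, and by 0.0369, 0.0523 and 0.0369 between control and gentamicin HC. Between control and gentamicin NHC the values were 0.208, −0.232 and 0.683, and between gentamicin HC and gentamicin NHC 0.377, −0.0386 and −0.0179. Only between control HC and control NHC did every same-numbered pair exceed every differently numbered pair. The main fit did not pair columns, and the replicate number as a block is one of the alternatives. Replicate numbers come from the column headers. Alternatives changed the scaling, offset, read minimum, block, groups fitted, variance trend, thresholds and replicates.

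The members, gene lists and named genes were chosen with earlier results of these data known. Named genes were all members, the genes most like each of them, and list genes called after gentamicin, at most 6 per list and comparison. For the relatives and the sources only counts were set, and genes of these lists are named after their values were seen.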

Additional observations from a re-analysis of the deposited data

Results flagged for a closer look

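None of the 10 enzymes differed in its gentamicin response between hair cells and non-hair cells at an adjusted p under 0.05 by the interaction in limma. Of the 65 tested genes in the lists around them 7 did, or 10.8%, below the 13.4% of all genes tested. The difference is given as the log2 fold change in HC minus that in NHC. It was positive for Txnip, the inhibitor of thioredoxin (0.98, adjusted p = 0.0300), and for Sepsecs, which makes selenocysteine (0.82, adjusted p = 0.00516). It was negative for 4 genes of glutathione and NADPH supply: the glutathione synthetase Gss (−0.56, adjusted p = 0.0366), the NADPH-producing Idh1 (−0.55, adjusted p = 0.0304) and the pentose phosphate enzymes Pgd (−0.53, adjusted p = 0.0126) and G6pdx (−0.51, adjusted p = 0.0430). It was also negative for the mitochondrial glutaredoxin Glrx5 (−0.31, adjusted p = 0.0377). Sepsecs and Pgd passed under every alternative run. G6pdx, Glrx5, Gss, Idh1 and Txnip each lost the call when certain single replicates were left out, among them control HC replicates 1 and 2 for all of these genes, and all but Txnip also lost it when reads were scaled by totals. Glrx5 lost it with the replicate block as well (adjusted p = 0.0513), and Glrx5 and G6pdx with no variance trend (adjusted p = 0.0624 and 0.0593).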

How the results depend on the processing

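In hair cells after gentamicin the number of members called was 1, against 0 when reads were scaled by totals, with no variance trend or at a fold threshold of 1.5, and 2 (Sod1 and Prdx2) with the replicate block or the compared groups alone. Leaving out single replicates gave 0 to 2 there, 0 to 1 in NHC, 0 to 1 for the interaction, 5 to 7 for HC against NHC in controls (3 at a fold threshold of 1.5) and 7 to 8 in treated organs. The replicate block changed no other number of members called. Scaling by totals turned Prdx1 (0.0473) and Prdx3 (0.0431) in HC and Gpx1 in the interaction (0.0160), and scaling by the median of ratios turned Prdx2 between the control populations (0.0571), where it shifted the median of all genes by 0.10. Signs also turned without single replicates. In NHC after gentamicin the ranges were −0.13 to 0.0021 for Gpx4, −0.14 to 0.0651 for Prdx5, −0.0527 to 0.11 for Prdx2, −0.19 to 0.00930 for Sod2 and −0.15 to 0.00032 for Sod1. They were −0.14 to 0.0382 for Gpx1 in the interaction, −0.14 to 0.0228 for Prdx2 between control populations, and −0.0337 to 0.15 for Sod2 and −0.0136 to 0.10 for Prdx3 between treated ones. Per kilobase of the longest transcript, control HC held 15.8 for Sod2, 45.4 for Gpx1, 159 for Gpx4, 60.8 for Prdx1, 209 for Prdx2, 37.9 for Prdx5 and 27.5 for Txn2. Over all genes, 4418 calls in HC became 2074 at a fold threshold of 1.5, and 875 in NHC became 383 with the groups alone, 55 by adjusted p, 219 at that fold, and 411 to 1570 without single replicates, while 2158 interaction calls went down to 1163. Scaling by totals moved the share of calls that were higher from 46.1 to 63.6% in HC, 58.5 to 69.2% in NHC and 51.1 to 67.7% in the interaction. The cause of these changes was not tested. Each member had at least 1012 reads in every replicate.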
